A study of Homo sapiens with 48 samples.

Results

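The transcription factor MYC, its dimer partner MAX, 4 proteins that compete with MYC for MAX (MXD1, MXD3, MXD4 and MNT) and MIR17HG, the host gene of the miR-17-92 microRNAs, were followed as a set of 7 genes. The rule takes them by name with no threshold on a value, though the set was drawn up with earlier results of these data known, and all 7 had a row in every library, 7 of 60558 gene rows in the coculture files, 14009 in the knockout tumour files and 34843 in the mutant tumour files. On GRCh38, with GENCODE 29, MYC (ENSG00000136997) lies at chr8:127735434-127741434 on the plus strand and MAX (ENSG00000125952) at chr14:65006174-65102695 on the minus strand. The competitors are MXD1 (ENSG00000059728, chr2:69897688-69942945, plus), MXD3 (ENSG00000213347, chr5:177301461-177312757, minus), MXD4 (ENSG00000123933, chr4:2247432-2262294, minus) and MNT (ENSG00000070444, chr17:2384060-2401118, minus). MIR17HG (ENSG00000215417, chr13:91347820-91354579, plus) is annotated as a processed transcript and encodes no protein. MAX overlaps FNTB, MXD1 overlaps SNRNP27, and MXD3 overlaps RAB24 and PRELID1, so reads may be shared with those genes and the levels of MAX, MXD1 and MXD3 are uncertain to that extent.

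RNA was measured in U2932, a human diffuse large B-cell lymphoma line, in 48 libraries of 3 experiments and 16 groups, with 3 replicates a group. In the coculture experiment, WT cells and the genotype labelled KLHL6-KO were collected 0, 3, 8 and 12 h after plating on OP9 stromal cells. These stromal cells stably express DLL1, a ligand of NOTCH receptors. No group was plated on stroma without DLL1 or without stroma. In a change from 0 h, the ligand, stromal contact and plating itself therefore cannot be told apart. The knockout tumours grew from WT cells, KLHL6-KO cells (KLHL6-/-NOTCH2+/+), NOTCH2-KO cells (KLHL6+/+NOTCH2-/-) and DKO cells (KLHL6-/-NOTCH2-/-), and the mutant tumours from cells that stably expressed NOTCH2(WT) or the variant S2156A, R2400* or Q2140*. All tumours, controls included, were xenotransplants in NSG mice, which lack lymphocytes of their own but keep myeloid, vascular and stromal cells, received the chemotherapy CHOP (prednisone with vincristine, doxorubicin and cyclophosphamide), and were taken when the tumour measured 1 cm3. The titles call the replicates biological. The labels do not say whether they are separate cultures or animals, whether a genotype is 1 clone or which promoter drove the NOTCH2 constructs, so p-values measure the spread between these samples. In bulk RNA, fewer cells of a type and less RNA per cell cannot be told apart.

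Values are normalised read counts, and depth was 11.1 to 17.4 M reads in coculture, 3.71 to 15.2 M in the knockout tumours and 12.7 to 17.1 M in the mutant tumours. The 3 experiments were normalised separately, so no level is compared between them. The B-cell markers MS4A1, CD79A, CD79B, PAX5 and CD22 summed to between 28245 and 37582 normalised counts in coculture, 23569 to 37807 in the knockout tumours and 36801 to 49719 in the mutant tumours. In coculture KLHL6 was lower in the cells labelled KLHL6-KO at every time, 2381 against 5389 normalised counts at 0 h (log2 difference -1.17 ± 0.12 with adjusted p = 1.76e-06). In the knockout tumours KLHL6 RNA was not lower in the groups labelled as KLHL6 knockouts. It was 6536 against 4372 normalised counts in labelled KLHL6-KO against WT tumours (log2 0.59 ± 0.15 with adjusted p = 0.013) and 4574 against 4372 in labelled DKO against WT tumours (log2 0.06 ± 0.15 with adjusted p = 0.833). It was also higher in labelled NOTCH2-KO tumours, 7433 against 4372 against WT (log2 0.77 ± 0.15 with adjusted p = 0.0012). NOTCH2 was 356 against 726 in labelled NOTCH2-KO against WT tumours (log2 -0.97 ± 0.21 with adjusted p = 0.00303) and 568 against 726 in labelled DKO against WT tumours (log2 -0.28 ± 0.21 with adjusted p = 0.428), and the positions of the deleted parts are not given, so reads outside them check nothing. In the mutant tumours NOTCH2 was 16649.9 against 15858 in S2156A, 26466 against 15858 in R2400* and 59619 against 15858 in Q2140* against NOTCH2(WT) tumours.

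MYC binds DNA as a dimer with MAX at the E-box motif and raises transcription of genes for growth, above all those that build ribosomes, and it is a driver of many B-cell lymphomas. The MXD proteins and MNT form dimers with the same MAX, bind the same motif and recruit SIN3 and histone deacetylases to repress, so that MYC and these proteins are competitors for 1 partner. The miR-17-92 microRNAs, processed from the MIR17HG transcript, are known in B cells for lowering BCL2L11 (BIM) and CDKN1A, and MYC is a known activator of their host gene. MYC is also a known NOTCH target in lymphocytes.

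MIR17HG carries 6 microRNA hairpins within 787 bases (chr13:91350605-91351391, plus strand, GRCh38.p14, RefSeq), and these give 12 mature microRNAs. The 6 main arms are shown because the seed, which pairs with target transcripts, sorts them into 4 seed groups. The sequences are RefSeq's, written 5′ to 3′ with the seed (bases 2 to 8) in capitals.
miR-17-5p: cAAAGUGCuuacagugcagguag
miR-20a-5p: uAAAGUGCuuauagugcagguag
miR-18a-5p: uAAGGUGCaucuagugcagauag
miR-19a-3p: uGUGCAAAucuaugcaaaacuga
miR-19b-3p: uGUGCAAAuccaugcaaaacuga
miR-92a-3p: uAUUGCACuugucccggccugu
miR-17-5p and miR-20a-5p share the seed AAAGUGC, and miR-20a-5p differs from miR-17-5p by C1U and C12U, counted from the 5′ end. miR-19a-3p and miR-19b-3p share the seed GUGCAAA and differ by U11C. miR-18a-5p and miR-92a-3p each have a seed of their own. Only the poly(A) host transcript was measured here, not the mature microRNAs.

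The E-box CACGTG, which reads the same on both strands, was looked for in the RefSeq promoter windows (250 bases before to 50 after the start, 300 bases) of the 6 members other than MYC. It was found in those of MNT and MXD4 and not in those of MAX, MXD1, MXD3 or MIR17HG. Of 35116 promoter windows of that length, 7.26% hold it. The stretches around the motif are shown for the members that hold it. Both rose at 3 h in WT cells, and so did MAX and MIR17HG, whose windows lack it. In KLHL6-KO cells at 3 h MNT rose and MXD4 was not called. The part of the motif in these changes was not tested, and variants of the motif or sites outside the windows were not looked for. The stretches are GRCh38.p14 on the minus strand, with the motif in capitals.
MNT (chr17:2401218-2401283): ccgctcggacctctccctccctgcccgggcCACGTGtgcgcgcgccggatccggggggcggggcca
MXD4 (chr4:2262312-2262359): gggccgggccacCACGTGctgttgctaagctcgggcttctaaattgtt
The motif lies 193 to 188 bases before the start of MNT and 238 to 233 bases before that of MXD4. A match is a description of these letters and does not show binding.

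Per kilobase of exon, MAX was the most abundant member in 23 of the 24 coculture libraries, between 218 and 318 normalised counts per kb. The exception was KLHL6-KO 8 h replicate 1, where MIR17HG was higher (240.4 against 237). MYC ran from 34.3 to 155, MIR17HG from 31.4 to 240.4 and MXD4 from 72.7 to 134 normalised counts per kb. MNT (35.9 to 80.6), MXD3 (24.5 to 61.9) and MXD1 (12.8 to 29.4) were lower. MAX stayed within a narrow band while MYC and MIR17HG covered the widest ranges of the set.

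MYC rose in coculture in both genotypes, and its libraries at 12 h lay below those at 3 and 8 h. In WT cells the MYC libraries held 108, 103 and 122 normalised counts at 0 h, 309, 342 and 343 at 3 h, 307, 323 and 275 at 8 h and 150.4, 202 and 134 at 12 h. In KLHL6-KO cells they held 148, 157 and 175 at 0 h, 402, 466 and 428 at 3 h, 322, 324 and 320.4 at 8 h and 172, 211 and 179 at 12 h. Every library at 3 and 8 h lay above every library of its genotype at 0 and 12 h, and the WT libraries at 12 h still lay above those at 0 h. The log2 change in WT cells at 12 h was 0.52 ± 0.11 (adjusted p = 1.63e-04). For KLHL6-KO cells it was 1.42 ± 0.11 (adjusted p = 2.40e-12) at 3 h, 1.00 ± 0.11 (adjusted p = 5.57e-09) at 8 h and 0.22 ± 0.11 (adjusted p = 0.105) at 12 h, the last short of the threshold with a 95% interval of -0.00052 to 0.45. Ordered by mean, MYC ran from WT cells at 0 h through KLHL6-KO cells at 0 h, WT cells at 12 h, KLHL6-KO cells at 12 h, WT cells at 8 h, KLHL6-KO cells at 8 h and WT cells at 3 h to KLHL6-KO cells at 3 h. In that order neighbours overlapped among KLHL6-KO 0 h, WT 12 h and KLHL6-KO 12 h and among WT 8 h, KLHL6-KO 8 h and WT 3 h, and the other neighbours did not. Differences are log2 of the normalised count plus 2, ± SE, and every adjusted p is limma's after Benjamini-Hochberg adjustment over all genes tested, called under 0.05.

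MAX, the shared partner, rose a little in both genotypes. In WT cells MAX was 1018 ± 74.8 normalised counts (SD) at 0 h, 1169 ± 16.3 at 3 h, 1272 ± 37.3 at 8 h and 1294 ± 123 at 12 h. KLHL6-KO cells held 1002 ± 61.8, 1154 ± 15.3, 1130.3 ± 87.5 and 1286 ± 66.9 at the same times. WT libraries after 0 h all lay above those at 0 h, as did KLHL6-KO libraries at 3 and 12 h, while those at 8 h overlapped with 0 h. The log2 change was 0.20 ± 0.07 (adjusted p = 0.0116), 0.32 ± 0.07 (adjusted p = 1.25e-04) and 0.34 ± 0.07 (adjusted p = 6.43e-05) in WT cells. It was 0.20 ± 0.07 (adjusted p = 0.0151), 0.17 ± 0.07 (adjusted p = 0.0426) and 0.36 ± 0.07 (adjusted p = 5.71e-05) in KLHL6-KO cells. The call at 3 h was lost without replicate 1 or 2 of the 0 h libraries in either genotype (adjusted p 0.0602 and 0.0557 in WT, 0.0633 and 0.0711 in KLHL6-KO cells). At 8 h in KLHL6-KO cells it was lost in edgeR (adjusted p = 0.0573), with TMM scaling (0.0525), with no filter on low values (0.086) and without 0 h replicate 1 or 2 or 8 h replicate 2 or 3, with adjusted p from 0.0138 to 0.245 over all alternatives.

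The MXD genes, repressors of the MAX dimer network, did not move as 1 group: MXD3 fell in both genotypes, MXD4 rose in WT cells, and MXD1 changed at single times. MXD3, known to be expressed in dividing cells, held 270.2, 274 and 289.8 normalised counts at 0 h, 189, 177 and 186 at 3 h, 148, 192 and 181 at 8 h and 215, 156 and 174 at 12 h in WT cells. KLHL6-KO cells held 276, 296 and 319 at 0 h, 168, 178 and 171 at 3 h, 139.6, 144 and 135 at 8 h and 134, 126 and 158 at 12 h. All libraries of each genotype at 3 h and later were below those at 0 h. The log2 change of MXD3 was -0.59 ± 0.11 (adjusted p = 1.72e-05), -0.68 ± 0.11 (adjusted p = 1.69e-06) and -0.62 ± 0.11 (adjusted p = 9.24e-06) in WT cells. For KLHL6-KO cells it was -0.77 ± 0.11 (adjusted p = 4.23e-07), -1.08 ± 0.11 (adjusted p = 5.98e-10) and -1.09 ± 0.11 (adjusted p = 3.84e-10). MXD1, known from differentiating cells, was the member with the lowest level per kb. It was 148 ± 33.5, 119 ± 7.68, 111 ± 13.9 and 159.9 ± 5.70 normalised counts over the times in WT cells. KLHL6-KO cells held 81.6, 115 and 104 at 0 h and 115 ± 15.7, 119 ± 21.7 and 162 ± 6.79 afterwards. In WT cells its log2 change was -0.29 ± 0.14 (adjusted p = 0.0823), -0.39 ± 0.14 (adjusted p = 0.0195) and 0.13 ± 0.14 (adjusted p = 0.458), so the fall at 8 h alone passed. That call rested on WT 0 h replicate 1 (adjusted p = 0.226 without it) and WT 8 h replicates 2 and 3 (0.0734 and 0.0737), with adjusted p from 0.00809 to 0.226 over all alternatives. In KLHL6-KO cells MXD1 changed by 0.21 ± 0.14 (adjusted p = 0.264), 0.24 ± 0.14 (adjusted p = 0.186) and 0.69 ± 0.14 (adjusted p = 1.83e-04), a rise at 12 h with all libraries above those at 0 h.

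MXD4 rose in WT cells and not detectably in KLHL6-KO cells. WT libraries held 539, 513 and 562 normalised counts at 0 h, 944, 837 and 744 at 3 h, 667, 795 and 704 at 8 h and 732, 613 and 635 at 12 h, and KLHL6-KO libraries held 627, 635 and 667 at 0 h, 712, 683 and 643 at 3 h, 602, 625 and 611 at 8 h and 576, 578 and 583 at 12 h. The WT libraries after 0 h did not overlap with those at 0 h. The log2 change was 0.64 ± 0.08 (adjusted p = 1.03e-08), 0.42 ± 0.08 (adjusted p = 1.81e-05) and 0.29 ± 0.08 (adjusted p = 0.00173) in WT cells. For KLHL6-KO cells it was 0.08 ± 0.08 (adjusted p = 0.446), -0.07 ± 0.08 (adjusted p = 0.506) and -0.15 ± 0.08 (adjusted p = 0.114), with 95% intervals of -0.08 to 0.23, -0.22 to 0.09 and -0.31 to 0.0042, and the last was called lower with only the groups compared in the fit (adjusted p = 0.0463). MNT, a repressor that most dividing cells express, had its highest libraries at 3 h in both genotypes. WT libraries held 458, 484 and 444 normalised counts at 0 h, 704, 664 and 684 at 3 h, 355, 425 and 427 at 8 h and 417, 346 and 419 at 12 h. KLHL6-KO libraries held 399.6, 379 and 415 at 0 h, 631, 582 and 577 at 3 h, 384, 325 and 313 at 8 h and 347, 352 and 350.2 at 12 h. All libraries at 3 h lay above all others of their genotype. At 3 h MNT changed by 0.56 ± 0.08 (adjusted p = 4.72e-07) in WT cells and 0.58 ± 0.08 (adjusted p = 6.99e-07) in KLHL6-KO cells. Below the starting level afterwards, it changed by -0.20 ± 0.08 (adjusted p = 0.0355) at 8 h and -0.23 ± 0.08 (adjusted p = 0.0173) at 12 h in WT cells and by -0.23 ± 0.08 (adjusted p = 0.028) and -0.18 ± 0.08 (adjusted p = 0.0727) in KLHL6-KO cells. The later calls depended on single libraries and on the fit. For WT cells at 8 h the call was lost without WT 0 h replicate 1 or 2 or WT 8 h replicate 1, with no filter on low values (adjusted p = 0.0867), with TMM scaling (0.0533) and with only the groups compared (0.083, range 0.0227 to 0.268), and at 12 h without WT 0 h replicate 2 or WT 12 h replicate 2 and with only the groups compared (0.0544, range 0.0112 to 0.17). For KLHL6-KO cells at 8 h, whose libraries overlapped with 0 h, it was lost without 0 h replicate 1 or 3 or 8 h replicate 2 or 3 and with no filter (0.0729, range 0.00473 to 0.158).

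MIR17HG had the largest changes of the members in both genotypes. WT libraries held 113, 109.8 and 117 normalised counts at 0 h, 589, 601 and 682 at 3 h, 479, 696 and 498 at 8 h and 578, 511 and 472 at 12 h. KLHL6-KO libraries held 141, 149 and 134 at 0 h, 574, 595 and 635 at 3 h, 839, 709.6 and 809 at 8 h and 742, 805 and 824 at 12 h. The lowest library after 0 h lay far above the highest at 0 h in each genotype, and MIR17HG libraries at 12 h stayed close to those at 8 h, while those of MYC lay below them. The log2 change at 8 and 12 h was 2.26 ± 0.10 (adjusted p = 1.87e-18) and 2.18 ± 0.10 (adjusted p = 2.80e-18) in WT cells. For KLHL6-KO cells it was 2.07 ± 0.10 (adjusted p = 5.80e-17), 2.46 ± 0.10 (adjusted p = 1.26e-18) and 2.47 ± 0.10 (adjusted p = 1.23e-19). By mean the order was WT 0 h, KLHL6-KO 0 h, WT 12 h, WT 8 h, KLHL6-KO 3 h, WT 3 h, KLHL6-KO 8 h and KLHL6-KO 12 h. The first 2 groups stood apart from each other and from the rest, the 4 groups from WT 12 h to WT 3 h overlapped with their neighbours, and the KLHL6-KO groups at 8 and 12 h lay above them and overlapped with each other.

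**Figure D1:**
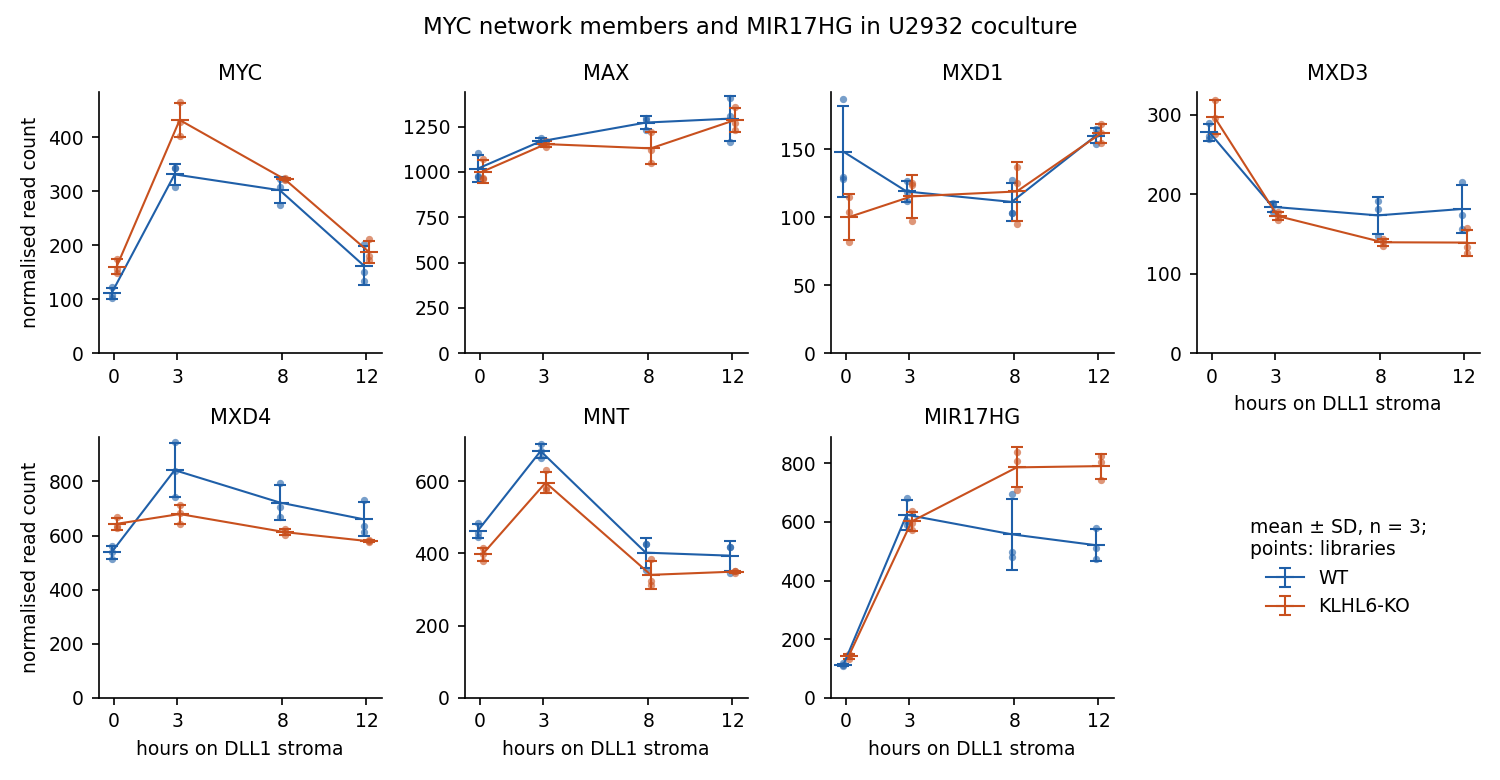
Normalised read count (y axis) against hours of coculture (x axis) for the 7 members in WT and KLHL6-KO cells. Points are libraries, and dashes with error bars are the mean ± SD of 3. MYC is highest at 3 and 8 h and lower at 12 h, MIR17HG stays up, MNT is highest at 3 h and MXD3 falls.

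Counted over the set, 6 of the 7 members were called in WT cells at 3 h (5 higher, 1 lower), where 54.8% of the 15032 genes tested were called. At 8 h it was 7 members (4 higher, 3 lower) where 56.2% of genes were called, and at 12 h 6 (4 higher, 2 lower) where 53.0% were. In KLHL6-KO cells 5 members were called at 3 h (4 higher, 1 lower) against 39.1% of genes, 5 at 8 h (3 higher, 2 lower) against 37.8%, and 4 at 12 h (3 higher, 1 lower) against 40.5%. With so much of the transcriptome called, these counts alone say little about the members. The times of 1 genotype share their 0 h libraries, and so do the 3 comparisons against them.

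**Figure D2:**
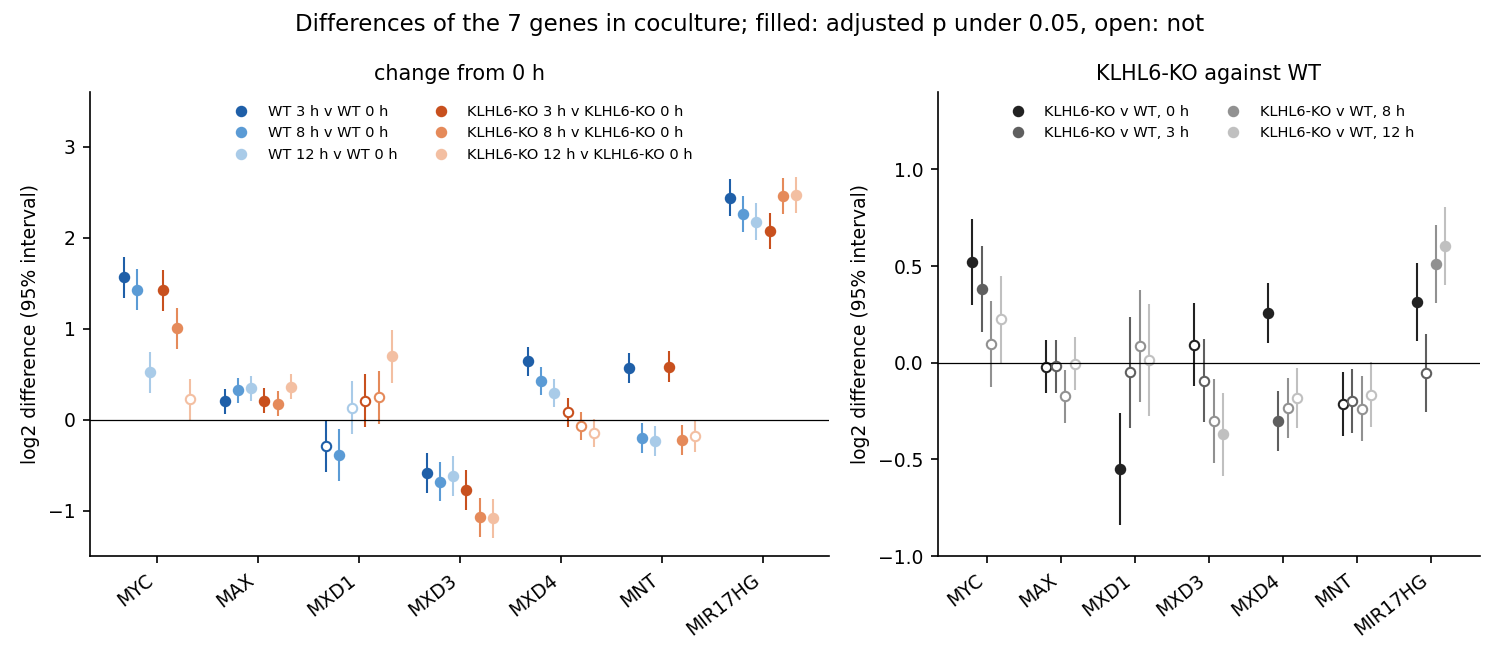
Log2 differences of the 7 members with 95% intervals, with changes from 0 h in WT and KLHL6-KO cells on the left and KLHL6-KO against WT cells at each time on the right. Filled points have an adjusted p under 0.05 and open points do not. The changes from 0 h of MIR17HG are all above 2, and the differences between genotypes are smaller, from -0.55 for MXD1 at 0 h to 0.60 for MIR17HG at 12 h.

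The KLHL6-KO cells started from other levels. At 0 h, 4 members were called (3 higher, 1 lower), where 26.1% of genes were. MXD4 was higher in KLHL6-KO cells by 0.26 ± 0.08 (adjusted p = 0.0115) and MIR17HG by 0.31 ± 0.10 (adjusted p = 0.0176). MXD1 was lower, with a log2 difference of -0.55 ± 0.14 (adjusted p = 0.00429), with 81.6, 115 and 104 normalised counts against 187, 129.9 and 128. For these 3 genes the libraries of the genotypes did not overlap at 0 h, nor did those of MYC. How many of all genes had no overlap was not counted in any comparison, so such separations only describe these libraries. MNT differed by -0.21 ± 0.08 (adjusted p = 0.0516), and edgeR gave an adjusted p of 0.0439 (range 0.0345 to 0.185). Single libraries decided some of these calls: MXD1 was lost without WT replicate 1 (0.0734), MXD4 without WT replicate 2 or KLHL6-KO replicate 3 (0.0665 and 0.0551), and MIR17HG in edgeR (0.0904) and without WT or KLHL6-KO replicate 2 (0.0688 and 0.0824).

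During coculture fewer members were called between the genotypes. At 3 h, 2 members were called where 7.82% of genes were: MYC was higher in KLHL6-KO cells by 0.38 ± 0.11 (adjusted p = 0.0266) and MXD4 lower, with a log2 difference of -0.30 ± 0.08 (adjusted p = 0.00952), both without overlap of libraries. At 8 h MIR17HG alone was called, higher by 0.51 ± 0.10 (adjusted p = 0.00117), where 4.34% of genes were called. At 12 h MIR17HG was higher by 0.60 ± 0.10 (adjusted p = 1.32e-04) and MXD3 lower, with a log2 difference of -0.37 ± 0.11 (adjusted p = 0.0431) with overlapping libraries, 2 members where 3.39% of genes were called. MYC differed by 0.10 ± 0.11 (adjusted p = 0.726) at 8 h and 0.22 ± 0.11 (adjusted p = 0.34) at 12 h, with 95% intervals of -0.13 to 0.32 and 0.00024 to 0.45. The MYC call at 3 h was lost without any 1 of WT replicate 1 or 2 or KLHL6-KO replicate 2 or 3 and with no filter (adjusted p = 0.0561, range 9.45e-04 to 0.141), and the MXD4 call without WT replicate 1 or KLHL6-KO replicate 3 (0.00201 to 0.127). For MXD3 at 12 h the call was lost without WT replicate 1 or 3 or KLHL6-KO replicate 1 or 2, with no filter (adjusted p = 0.1) and with only the groups compared (0.119, range 0.0117 to 0.336), while without WT 12 h replicate 2 MYC was called at 12 h (adjusted p = 0.027, range 0.027 to 0.777).

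Whether the course differed between genotypes was tested jointly over the 3 times, and 2 members were called where 12.4% of genes were. MXD4 changed less in KLHL6-KO than in WT cells, with terms of -0.56 ± 0.11 at 3 h, -0.49 ± 0.11 at 8 h and -0.44 ± 0.11 at 12 h on the log2 scale (joint adjusted p = 0.00146). For MIR17HG the terms were -0.37 ± 0.14 at 3 h, a smaller change in KLHL6-KO cells, and 0.20 ± 0.14 and 0.29 ± 0.14 at 8 and 12 h, larger ones (joint adjusted p = 0.00561). For MYC the terms were -0.14 ± 0.16, -0.43 ± 0.16 and -0.30 ± 0.16 (joint adjusted p = 0.19). For MXD1 they were 0.50 ± 0.20, 0.63 ± 0.20 and 0.56 ± 0.20 (joint adjusted p = 0.0838) and for MXD3 -0.19 ± 0.15, -0.39 ± 0.15 and -0.46 ± 0.15 (joint adjusted p = 0.0945). MAX and MNT were further from the threshold, with adjusted p of 0.481 and 0.964. All these terms rest on the same 0 h libraries, where MXD4 and MIR17HG already differed between the genotypes.

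MYC and its competitors can also be set against each other per kilobase, as the share of MYC in the summed level of MYC, MXD1, MXD3, MXD4 and MNT. In WT cells this share was 15.2% ± 1.08 (SD) at 0 h, 30.5% ± 2.65 at 3 h, 33.5% ± 2.19 at 8 h and 21.4% ± 4.84 at 12 h. For KLHL6-KO cells it was 20.2% ± 0.63, 40.0% ± 2.32, 38.5% ± 0.77 and 26.3% ± 2.42. It is a share of RNA, not of protein, and is given as a description without a test. MXI1 and MGA, which also pair with MAX, are not members and are not in the sum. In both genotypes MYC made up less than the 4 competitors together at every time, and its share was highest at 3 and 8 h.

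**Figure D3:**
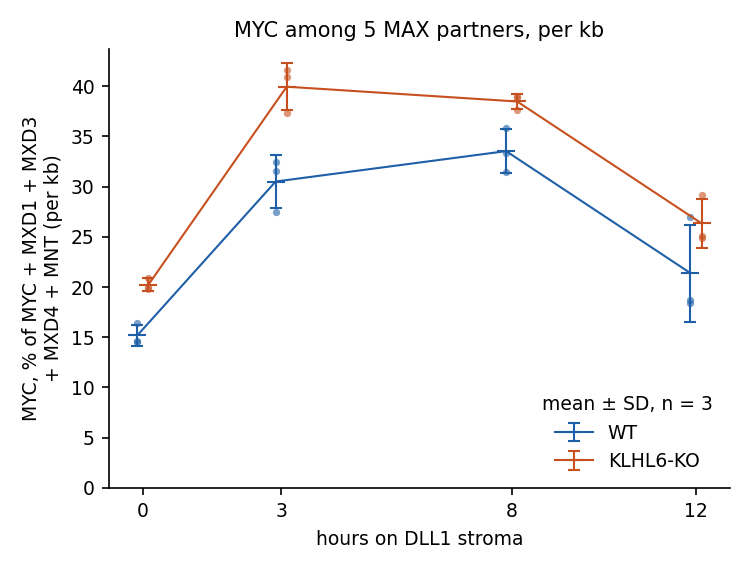
Share of MYC (percent, y axis) in the summed normalised counts per kb of MYC, MXD1, MXD3, MXD4 and MNT against hours of coculture, with libraries as points and the mean ± SD of 3 as dashes with error bars. The share went from 15.2% to 33.5% at 8 h in WT cells and from 20.2% to 40.0% at 3 h in KLHL6-KO cells.

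RNA of stromal markers moved with the time course. The 12 stromal markers, written as human symbols, summed to between 59.1 and 79.3 normalised counts in WT cells at 0 h and to 188 to 216, 254 to 278 and 207 to 640.4 at 3, 8 and 12 h. In KLHL6-KO cells the sums were 29.4 to 44.0 at 0 h and 163 to 243, 276 to 334 and 236 to 288 afterwards. At 0 h COL1A2, COL6A2 and PDGFRA were at 0 in every library of both genotypes. Of the 8 stromal markers tested, 4 were called higher and 1 lower in WT cells at 3 h and 6 higher in KLHL6-KO cells, and later 4 higher and 1 lower and then 5 higher in WT cells and 6 higher in KLHL6-KO cells. Of all genes, 54.8%, 56.2% and 53.0% were called at these times in WT cells and 39.1%, 37.8% and 40.5% in KLHL6-KO cells. The counts in WT cells alone therefore say little about these markers. Between genotypes 1 of the 8 was called, lower at 0 h, where 26.1% of all genes were called. Macrophage markers summed to at most 19.3, endothelial markers to 11.4, with CDH5, KDR and VWF at 0 throughout, T and NK cell markers to 9.53 and red cell markers to 1.93 normalised counts. The part of the stromal cells in the changes of the members was not tested. WT 12 h replicate 1 stood apart, with stromal markers at 640.4 against 207 and 210.1 in its replicates and 23.2% mitochondrial counts against 10.4% and 14.8%. Without it, 6 members were still called in WT cells at 12 h: MYC changed by 0.56 (adjusted p = 2.79e-04), MAX by 0.42, MXD3 by -0.75, MXD4 by 0.21 (0.0271), MNT by -0.28 (0.0122) and MIR17HG by 2.10. Against WT cells at 12 h, MIR17HG then differed by 0.68 in KLHL6-KO cells (adjusted p = 1e-04) and MXD3 by -0.24 (0.336), and the joint adjusted p of genotype by time was 8.35e-04 for MXD4 and 0.0025 for MIR17HG.

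Other proteins of the network were taken as a list of 7, of which 5 had enough reads to test. MXI1, a further repressor of the MXD family, fell the most of the list: it was 76.6 against 299 normalised counts at 3 h against 0 h in WT cells (log2 -1.93 ± 0.13 with adjusted p = 2.38e-14), and its change was -2.00 ± 0.13 (adjusted p = 1.24e-14) at 8 h and -1.36 ± 0.13 (adjusted p = 1.59e-10) at 12 h. In KLHL6-KO cells it changed by -1.45 ± 0.13 (adjusted p = 8.34e-11), -1.58 ± 0.13 (adjusted p = 1.23e-11) and -0.69 ± 0.13 (adjusted p = 7.71e-05), from a 0 h level already lower than in WT cells (183 against 299, log2 -0.70 ± 0.13 with adjusted p = 1.53e-04). MGA, a repressor that also pairs with MAX, rose at 3 h by 1.06 ± 0.09 (adjusted p = 2.55e-12) in WT cells and 1.01 ± 0.09 (adjusted p = 2.77e-11) in KLHL6-KO cells. MLXIP, which pairs with the MAX-like protein MLX, rose by 0.55 ± 0.07 (adjusted p = 1.60e-08) and 0.34 ± 0.07 (adjusted p = 8.84e-05). MLX rose at 12 h by 0.53 ± 0.07 (adjusted p = 2.18e-08) and 0.45 ± 0.07 (adjusted p = 1.02e-06). Counted together, 3, 2 and 2 of the 5 were higher and 2, 2 and 2 lower in WT cells at 3, 8 and 12 h, and 3, 2 and 3 higher and 2, 2 and 2 lower in KLHL6-KO cells. The medians were 0.32, 0.15 and 0.05 in WT and 0.19, 0.16 and 0.25 in KLHL6-KO cells, and the median over all genes tested lay between -0.01 and 0.00 in every comparison. The share of the 5 called was 100%, 80% and 80% in WT and 100%, 80% and 100% in KLHL6-KO cells, where 54.8%, 56.2% and 53.0% and 39.1%, 37.8% and 40.5% of all genes were called.

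Of 12 MYC coactivators, 6, 5 and 5 were called higher and 0 lower (0 or 1 with a library left out) in WT cells at 3, 8 and 12 h, with a median log2 change of 0.20, 0.19 and 0.13. In KLHL6-KO cells 4, 3 and 2 were higher and 1 was lower, KAT5 at 12 h (medians 0.08, 0.12 and 0.13). The shares called, 50%, 41.7% and 41.7% in WT and 33.3%, 25% and 25% in KLHL6-KO cells, were below those of all genes. The count of higher coactivators was 3 in WT cells at 12 h without WT 0 h replicate 2, 1 in KLHL6-KO cells at 8 h without 8 h replicate 1, and 1 at 12 h without 0 h replicate 2 or 12 h replicate 2 or 3. Without KLHL6-KO 0 h replicate 1, 2 were lower at 3 h. WDR5, a scaffold that holds MYC on chromatin, rose by 0.56 ± 0.06 (adjusted p = 2.50e-09) at 3 h in WT cells and 0.25 ± 0.06 (adjusted p = 0.00147) in KLHL6-KO cells, and HCFC1, a host cell factor that binds MYC, by 0.52 ± 0.07 (adjusted p = 1.12e-07) in WT cells. Of 10 corepressor genes of the MXD and MNT proteins, 3, 4 and 3 were higher and 1 lower (0 to 2 with a library left out) at each time in WT cells, among them SAP18 (log2 0.43 ± 0.06 with adjusted p = 3.22e-07 at 3 h), SIN3B, a scaffold of the complex (0.64 ± 0.07 with adjusted p = 2.06e-09 at 12 h), and SAP30, which fell (-0.52 ± 0.08 with adjusted p = 9.37e-07 at 3 h). In KLHL6-KO cells 2, 2 and 3 were higher and 0, 2 and 3 lower. The medians of the corepressor genes were 0.09, 0.13 and 0.04 in WT and 0.00035, -0.00064 and 0.08 in KLHL6-KO cells. The shares called were 40%, 50% and 40% in WT cells, each below that of all genes. In KLHL6-KO cells they were 20%, 40% and 60%, where 39.1%, 37.8% and 40.5% of all genes were called. In KLHL6-KO cells the counts at 12 h went to 2 higher and 1 lower without 0 h replicate 1 or 2 or 12 h replicate 3 and to 1 and 1 without 12 h replicate 2, and at 8 h to 1 lower without 0 h replicate 1 and to 1 higher without 8 h replicate 2. Of 12 genes acting on the stability of MYC protein, 8, 7 and 6 were higher and 1, 1 and 2 lower in WT cells, and 7, 6 and 4 higher and 1 lower at each time in KLHL6-KO cells, with medians of 0.33, 0.28 and 0.15 and of 0.26, 0.09 and 0.05. The shares called were 75%, 66.7% and 66.7% in WT cells, where 54.8%, 56.2% and 53.0% of all genes were called. In KLHL6-KO cells they were 66.7%, 58.3% and 41.7%, where 39.1%, 37.8% and 40.5% of all genes were, so the last was near the share of all genes. With a library left out, the lower counts were 1 or 2 of these 12 genes. They act in opposite ways: USP36, a nucleolar deubiquitinase that stabilises MYC, rose by 0.96 ± 0.06 (adjusted p = 4.36e-16) at 3 h in WT cells, and FBXW7, the ubiquitin ligase subunit that marks MYC for degradation, rose by 0.74 ± 0.06 (adjusted p = 7.29e-13). PIM1, a kinase that stabilises MYC, rose by 0.72 ± 0.06 (adjusted p = 4.04e-12) in WT cells, and USP28, a deubiquitinase that counters FBXW7, fell, with a log2 change of -0.91 ± 0.10 (adjusted p = 3.48e-09) in KLHL6-KO cells at 3 h. PIM2, a related kinase, was higher in KLHL6-KO than WT cells at 0, 3, 8 and 12 h by 0.39 ± 0.06 (adjusted p = 1.97e-05), 0.29 ± 0.06 (adjusted p = 0.00219), 0.22 ± 0.06 (adjusted p = 0.0339) and 0.49 ± 0.06 (adjusted p = 1.76e-06). PVT1, the noncoding neighbour of MYC, rose in WT cells by 0.62 ± 0.12 (adjusted p = 5.67e-05), 0.56 ± 0.12 (adjusted p = 1.93e-04) and 0.74 ± 0.12 (adjusted p = 5.17e-06) and in KLHL6-KO cells by 0.65 ± 0.12 (adjusted p = 5.71e-05), 0.57 ± 0.12 (adjusted p = 3.38e-04) and 0.70 ± 0.12 (adjusted p = 1.85e-05).

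Of 65 reported MYC target genes, most of them for ribosome assembly, 64 were tested in coculture. In WT cells 44 were higher and 7 lower at 3 h, 57 and 3 at 8 h and 53 and 4 at 12 h, with a median log2 change of 0.48, 0.66 and 0.53. In KLHL6-KO cells 40 were higher and 4 lower at 3 h, 50 and 3 at 8 h and 47 and 4 at 12 h, with medians of 0.27, 0.43 and 0.34. The shares called were 79.7%, 93.8% and 89.1% in WT cells, where 54.8%, 56.2% and 53.0% of all genes were called. In KLHL6-KO cells they were 68.8%, 82.8% and 79.7%, where 39.1%, 37.8% and 40.5% of all genes were. Without KLHL6-KO 0 h replicate 1 or 8 h replicate 3, 1 was lower in KLHL6-KO cells at 8 h. In WT cells at 3 h the smallest p-values belonged to GRWD1 and RRP12, both of ribosome assembly, and WDR43, of the nucleolar small-subunit processome, with log2 changes of 1.26 ± 0.06 (adjusted p = 1.08e-17), 1.10 ± 0.06 (adjusted p = 2.37e-16) and 1.12 ± 0.06 (adjusted p = 8.38e-17). At 8 h UTP20 rose by 1.30 ± 0.07 (adjusted p = 4.84e-16) and at 12 h PPAN by 1.08 ± 0.08 (adjusted p = 1.45e-13), both of pre-rRNA processing. In KLHL6-KO cells UTP20 rose by 0.95 ± 0.07 (adjusted p = 2.79e-12) at 8 h and DUSP2, a MAP kinase phosphatase, by 1.14 ± 0.08 (adjusted p = 4.81e-12) at 12 h. At 0 h 41 of the 64 were higher and 3 lower in KLHL6-KO than WT cells (median 0.28), 68.8% of the list against 26.1% of all genes, led by PPAN (0.72 ± 0.08 with adjusted p = 2.52e-08), MRTO4 (0.68 ± 0.07 with adjusted p = 2.93e-08) and GRWD1 (0.54 ± 0.06 with adjusted p = 1.07e-07). At 3, 8 and 12 h 6, 2 and 3 were higher and 0, 2 and 0 lower, with medians of 0.10, 0.04 and 0.09. The shares called were 9.38%, 6.25% and 4.69% of the list, near the 7.82%, 4.34% and 3.39% of all genes. These 3 small counts moved with single libraries, to 2 or 3 higher at 3 h without WT replicate 2 or KLHL6-KO replicate 2 or 3, to 0 or 1 higher at 8 h when any 1 WT or KLHL6-KO library was left out, and at 12 h to 6 higher without WT replicate 2 and to 1 without WT replicate 1 or 3 or KLHL6-KO replicate 1 or 2. In the joint test, by the mean of the 3 terms, 3 changed more and 23 less in KLHL6-KO cells (median -0.22), 40.6% of the list against 12.4% of all genes, and the count with a smaller change was 14, 13 and 35 without WT 0 h replicate 1, 2 or 3 and 13 and 15 without KLHL6-KO 0 h replicate 2 or 3. Each term subtracts the difference between genotypes at 0 h, where 41 of the 64 were already higher in KLHL6-KO cells. A smaller change from 0 h and a higher start therefore cannot be told apart here. DUSP2 was one that changed more, by 1.18 ± 0.10 (adjusted p = 8.69e-09) on average, and NOP56, a core protein of box C/D snoRNPs, one that changed less (-0.47 ± 0.07 with adjusted p = 7.31e-05). Of the promoter windows of this list, 28 of 71 (39.4%) held CACGTG, against 7.26% of all windows and 2 of 22 (9.09%) of those of reported miR-17-92 targets. The genes were listed as MYC targets beforehand and the windows were not matched for base content, so the share is a description without a test.

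The 16 tested targets reported for miR-17-92 moved in both directions. In WT cells 9, 7 and 5 were higher and 3, 3 and 4 lower at 3, 8 and 12 h (medians 0.17, 0.18 and 0.02). In KLHL6-KO cells 7, 4 and 3 were higher and 2, 2 and 6 lower (medians 0.12, 0.10 and 0.02). The shares called were 75%, 62.5% and 56.2% in WT cells, where 54.8%, 56.2% and 53.0% of all genes were called, and 56.2%, 37.5% and 56.2% in KLHL6-KO cells, where 39.1%, 37.8% and 40.5% were. Without WT 0 h replicate 3 it was 7 higher and 5 lower in WT cells at 3 h, and without KLHL6-KO 0 h replicate 2 or 3 it was 1 lower in KLHL6-KO cells at 8 h. CDKN1A, an inhibitor of cyclin-dependent kinases, fell, at a mean of 344 against 835 normalised counts at 3 h against 0 h in WT cells (log2 change -1.28 ± 0.09 with adjusted p = 2.24e-14) and in KLHL6-KO cells, with a log2 change of -0.68 ± 0.09 (adjusted p = 8.44e-08). BCL2L11, the death-promoting BCL2 relative BIM, rose at 3 h by 0.96 ± 0.08 (adjusted p = 7.39e-13) and 0.52 ± 0.08 (adjusted p = 9.32e-07). TGFBR2, a TGF-beta receptor, rose by 0.89 ± 0.09 (adjusted p = 2.29e-10) at 8 h in WT cells and 0.80 ± 0.09 (adjusted p = 5.45e-09) in KLHL6-KO cells. TNFAIP3, an inhibitor of NF-kB, rose in KLHL6-KO cells by 1.12 ± 0.09 (adjusted p = 1.70e-12) at 8 h and 1.37 ± 0.09 (adjusted p = 7.21e-15) at 12 h. Between genotypes CDKN1A was higher in KLHL6-KO than WT cells at 3 h by 0.54 ± 0.09 (adjusted p = 5.14e-05) and lower at 8 h, with a log2 difference of -0.42 ± 0.09 (adjusted p = 0.00205). MIR17HG differed most between the genotypes at 8 and 12 h, and at these times the list's medians between them were -0.04 and -0.03. At 3, 8 and 12 h 5, 4 and 4 of the 16 were called between genotypes, 31.25%, 25% and 25% of the list. Of all genes 7.82%, 4.34% and 3.39% were called. MIR17HG itself differed by -0.05 at 3 h (adjusted p = 0.814). With a library left out, 1 or 2, 0 to 2 and 1 or 2 were higher, and 1 or 2 lower at each time. These are transcript levels, which show only part of what microRNAs do.

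Over the 24 coculture libraries, the 5 genes whose log2 values ran most like MYC among 15025 were DDX20 (Pearson r = 0.960), LAMP1 (0.960), PIGW (0.957), ZNF215 (0.951) and SF1 (0.950). For MIR17HG they were TNPO2 (0.980), MFSD2A (0.977), ZNFX1 (0.974), DDX51 (0.970) and CD83 (0.969). The 2 lists have no gene in common. The libraries share their times, genotypes and normalisation, so these r are descriptions without a test.

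In the knockout tumours MYC was among the least abundant members per kilobase and MAX the most. Per kb, MYC ran from 19.4 to 50.3 normalised counts over the 12 libraries, against 203 to 263 for MAX, 113 to 160.3 for MXD4, 93.6 to 149.9 for MXD3, 42.5 to 68.4 for MXD1, 36.6 to 52.3 for MNT and 33.8 to 64.6 for MIR17HG. MYC libraries held 58.1, 99.7 and 84.2 normalised counts in WT tumours, 112, 151 and 130.1 in those labelled KLHL6-KO, 69.7, 68.0 and 67.0 in those labelled NOTCH2-KO and 92.6, 109 and 124 in those labelled DKO. The libraries labelled KLHL6-KO lay above all WT libraries, and those labelled DKO lay above all labelled NOTCH2-KO and overlapped with WT. The share of MYC in MYC, MXD1, MXD3, MXD4 and MNT per kb was 7.04% ± 1.90 in WT tumours. It was 11.5% ± 1.24, 5.80% ± 0.27 and 8.65% ± 0.69 in labelled KLHL6-KO, NOTCH2-KO and DKO tumours. WT replicate 1 stood apart from the other WT tumours, with a chi-square of counts per degree of freedom of 30.8 and 34.2 against them and 2.79 between them. It held the lowest MYC of all 12 libraries, and its NOTCH2 was 420 normalised counts against 850.3 and 909 in the other WT tumours, inside the range of labelled NOTCH2-KO tumours (292 to 448). Values without it follow the comparisons. Because KLHL6 RNA was not lower in labelled KLHL6-KO or labelled DKO than in WT tumours, directions below are those of the labelled groups.

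In tumours labelled KLHL6-KO, 3 members were called against WT tumours (2 higher, 1 lower), where 17.5% of 14005 genes were. MYC was higher by 0.71 ± 0.19 (adjusted p = 0.0175) and MNT by 0.37 ± 0.09 (adjusted p = 0.0113), with 419.8, 457 and 442 against 319, 356 and 344 normalised counts for MNT. MXD3 was lower, with a log2 difference of -0.34 ± 0.11 (adjusted p = 0.033), with 483, 555 and 504 against 696, 630.0 and 632. For all 3 genes the libraries of the groups did not overlap, which was not counted over all genes. The MYC call was lost without labelled KLHL6-KO replicate 2 or 3 and with only the groups compared in the fit (adjusted p = 0.0636, range 0.00883 to 0.0754). The MXD3 call was lost under that same fit (0.0592) and without WT replicate 1 or 2 or labelled KLHL6-KO replicate 1 or 3 (range 0.0304 to 0.121). Without WT replicate 1, MYC was higher by 0.50 (adjusted p = 0.0457) and MNT by 0.33 (0.0162), and MXD3 was at -0.30 (0.0509).

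In tumours labelled NOTCH2-KO, 2 members were called against WT tumours (1 higher, 1 lower), where 30.7% of genes were. MXD1 held 269.9, 344 and 288 against 414, 375 and 434 normalised counts and was lower, with a log2 difference of -0.44 ± 0.12 (adjusted p = 0.00946). MXD4 held 1131, 1071 and 1069.5 against 964, 917 and 795 and was higher by 0.29 ± 0.10 (adjusted p = 0.0275). Neither gene had overlapping libraries, and MIR17HG, with 217, 226 and 216 against 118, 164 and 205, had none either but differed by 0.47 ± 0.18 (adjusted p = 0.0537). MYC differed by -0.20 ± 0.19 (adjusted p = 0.452). The MXD1 call was lost without labelled NOTCH2-KO replicate 1 (range 0.00577 to 0.058), and the MXD4 call without WT replicate 3 or any labelled NOTCH2-KO library and with only the groups compared (0.0504, range 0.00564 to 0.118), while MIR17HG was called without WT replicate 3 (adjusted p = 0.0107, range 0.0107 to 0.199). Without WT replicate 1, MXD1 differed by -0.43 (adjusted p = 0.00996), MXD4 by 0.35 (0.00564), MYC by -0.42 (0.0687) and MIR17HG by 0.26 (0.199).

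In tumours labelled DKO no member was called against WT tumours, where 9.35% of genes were: limma gave 1 member with an unadjusted p under 0.05, which was MYC (log2 0.44 ± 0.19 with adjusted p = 0.142), and edgeR called 0. Against labelled NOTCH2-KO tumours again 0 were called, where 6.81% of genes were, with 2 members at an unadjusted p under 0.05 and 0 called by edgeR. These were MYC (0.65 ± 0.19 with adjusted p = 0.0501) and MXD1 (0.37 ± 0.12 with adjusted p = 0.0714). MYC passed with a pseudocount of 8 (adjusted p = 0.0493), with TMM scaling (0.0498) and with these groups alone in the fit (0.0203), and its adjusted p ran from 0.0203 to 0.197 over all alternatives. Against labelled KLHL6-KO tumours 1 member was called, where 10.8% of genes were: MXD3 was higher by 0.43 ± 0.11 (adjusted p = 0.0152), with 642, 664 and 773 against 483, 555 and 504 normalised counts and no overlap. The interaction of the labelled knockouts called 1 member where 10.8% of genes were called, MXD1 at 0.54 ± 0.17 (adjusted p = 0.0448): it was lower in labelled NOTCH2-KO tumours than in WT but 388 ± 47.2 in labelled DKO against 360.2 ± 16.2 in labelled KLHL6-KO tumours. That call was lost when any 1 of 8 libraries was left out, namely WT replicate 3, labelled KLHL6-KO replicate 1, 2 or 3, labelled NOTCH2-KO replicate 1 or 3 or labelled DKO replicate 1 or 3, and with the replicate number as a block (range of adjusted p 0.0155 to 0.127). Without WT replicate 1, 0 members were called in labelled DKO against WT tumours, with MYC at 0.23 (adjusted p = 0.413), MXD1 in the interaction was 0.53 (0.0287), and the genes called in the interaction went from 1518 to 2410. Labelled DKO replicate 3 held only 3.71 M reads. Without it 0 members were called against WT, labelled KLHL6-KO or labelled NOTCH2-KO tumours or in the interaction, MXD3 against labelled KLHL6-KO tumours came to 0.35 (adjusted p = 0.0851) and MXD1 in the interaction to 0.50 (0.0992), and the genes called fell from 1310 to 424 against WT, from 1508 to 879 against labelled KLHL6-KO and from 954 to 470 against labelled NOTCH2-KO tumours. Without labelled KLHL6-KO replicate 1 or 3 the MXD3 call against those tumours was lost as well (0.0679 and 0.0567).

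**Figure D4:**
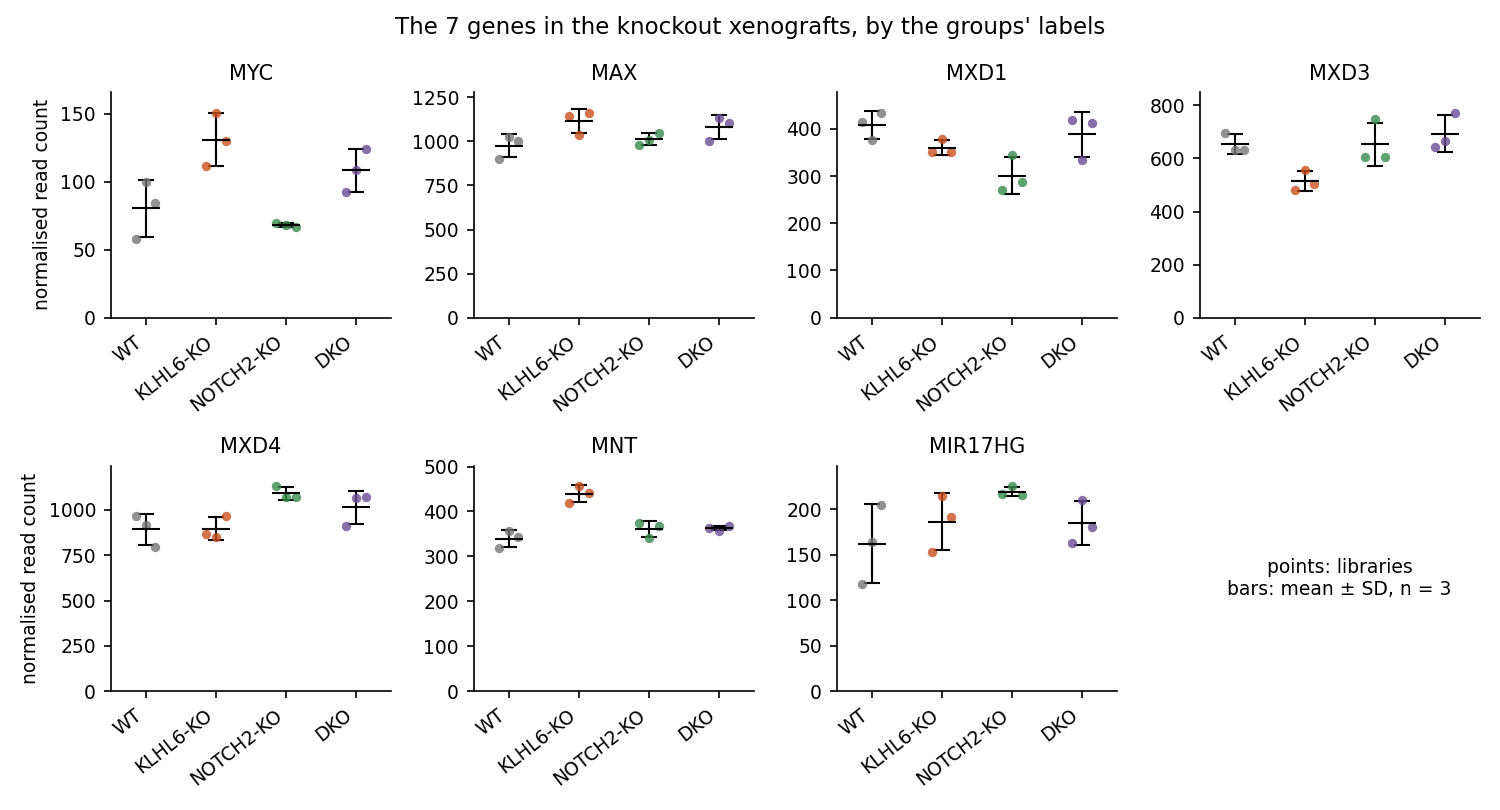
Normalised read count of the 7 members (y axis) in knockout tumours by labelled genotype (x axis), with libraries as points and the mean ± SD of 3 as dashes with error bars. The labelled KLHL6-KO group has the highest mean of MYC and MNT and the lowest of MXD3, and the labelled NOTCH2-KO group has the lowest mean of MXD1.

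In the mutant tumours MXD4 was the member that differed from NOTCH2(WT) tumours in all 3 variants. NOTCH2 RNA was itself higher in R2400* and Q2140* than in NOTCH2(WT) tumours (26466 and 59619 against 15858 normalised counts). In any comparison with R2400* or Q2140* tumours, the variant and the level of NOTCH2 RNA therefore cannot be told apart. MXD4 libraries held 911, 975 and 905 normalised counts in NOTCH2(WT), 1083, 1043 and 1064 in S2156A, 1084, 1099 and 1091 in R2400* and 1138, 1150.4 and 1183 in Q2140* tumours. The 4 groups did not overlap, in this order, though the highest S2156A and the lowest R2400* library were nearly equal. Against NOTCH2(WT), MXD4 was higher by 0.19 ± 0.05 (adjusted p = 0.0151) in S2156A, 0.23 ± 0.05 (adjusted p = 0.00707) in R2400* and 0.31 ± 0.05 (adjusted p = 1.43e-04) in Q2140* tumours. These 3 comparisons share the NOTCH2(WT) libraries. Between variants MXD4 differed by -0.04 ± 0.05 (adjusted p = 0.785) for S2156A against R2400*, -0.12 ± 0.05 (adjusted p = 0.0967) for S2156A against Q2140* and 0.08 ± 0.05 (adjusted p = 0.307) for Q2140* against R2400*. The S2156A call was lost without NOTCH2(WT) replicate 1 or 3 or S2156A replicate 1 or 3 and with no filter on low values (adjusted p = 0.0672, range 0.00133 to 0.0895) and the R2400* call without NOTCH2(WT) replicate 1 or 3 (0.00612 to 0.0568).

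MIR17HG held 515, 507 and 518 normalised counts in NOTCH2(WT), 443, 422 and 415 in S2156A, 549, 413 and 579 in R2400* and 672, 628 and 666 in Q2140* tumours. Every S2156A library was below and every Q2140* library above every NOTCH2(WT) library, while R2400* libraries ran across both. Against NOTCH2(WT), MIR17HG was lower, with a log2 difference of -0.27 ± 0.09 (adjusted p = 0.042) in S2156A and higher by 0.35 ± 0.09 (adjusted p = 0.00547) in Q2140* tumours. S2156A against Q2140* tumours differed by -0.62 ± 0.09 (adjusted p = 6.43e-06), and Q2140* against R2400* tumours by 0.36 ± 0.09 (adjusted p = 0.00462). The lower level in S2156A against NOTCH2(WT) was no longer called when any 1 of the 6 libraries was left out (range 6.73e-04 to 0.148). S2156A against R2400* differed by -0.25 ± 0.09 (adjusted p = 0.102), and was called without R2400* replicate 2, the library with 413 (adjusted p = 8.56e-04).

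MYC and MAX differed between Q2140* and R2400* tumours, and MXD3 between Q2140* tumours and each other group. MYC libraries held 179, 152 and 186 in NOTCH2(WT), 199, 193 and 165 in S2156A, 209, 194 and 223 in R2400* and 179.9, 141 and 137 in Q2140* tumours. In Q2140* against R2400* tumours, whose libraries did not overlap, MYC was lower, with a log2 difference of -0.45 ± 0.12 (adjusted p = 0.00737), and so was MAX, with -0.25 ± 0.07 (adjusted p = 0.00995). MXD3 libraries held 392, 447 and 424 in NOTCH2(WT), 423, 372 and 406 in S2156A, 440.4, 456 and 475 in R2400* and 539.7, 486 and 686 in Q2140* tumours. All Q2140* libraries of MXD3 lay above all others. MXD3 was higher in Q2140* tumours by 0.42 ± 0.09 (adjusted p = 0.00206) against NOTCH2(WT) and 0.30 ± 0.09 (adjusted p = 0.0249) against R2400*, and S2156A against Q2140* differed by -0.50 ± 0.09 (adjusted p = 2.38e-04). MAX in S2156A against Q2140* tumours differed by 0.22 ± 0.07 (adjusted p = 0.0132). MYC against NOTCH2(WT) was at 0.10 ± 0.12 (adjusted p = 0.64) in S2156A, 0.27 ± 0.12 (adjusted p = 0.176) in R2400* and -0.18 ± 0.12 (adjusted p = 0.304) in Q2140* tumours, with 95% intervals of -0.14 to 0.35, 0.03 to 0.51 and -0.42 to 0.06. The share of MYC in MYC, MXD1, MXD3, MXD4 and MNT per kb was 14.7% ± 1.71, 14.9% ± 1.25, 15.8% ± 0.74 and 11.5% ± 1.55. MXD1 and MNT were called in no comparison of these tumours, with group means of 402 to 433 and 457 to 529 normalised counts. In Q2140* against R2400* tumours the MAX call was lost without R2400* replicate 2 or Q2140* replicate 1 and with only the groups compared (adjusted p = 0.0603, range 0.00159 to 0.0925) and the MXD3 call without R2400* replicate 1 or 2 or Q2140* replicate 3 and with only the groups compared (0.0807, range 0.00352 to 0.176). The MAX call in S2156A against Q2140* tumours was lost without S2156A replicate 1 or 2 or Q2140* replicate 1 (0.00202 to 0.0732).

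Counted over the set, 2 members were called in S2156A (1 higher, 1 lower), 1 in R2400* and 3 in Q2140* tumours (all higher) against NOTCH2(WT), where 15.2%, 8.04% and 20.5% of 15354 genes were called. Between variants, 0 were called for S2156A against R2400*, where 4.76% of genes were, with 1 member at an unadjusted limma p under 0.05, MIR17HG, and 0 called by edgeR. For S2156A against Q2140* it was 3 members (1 higher, 2 lower) against 30.7% of genes, and for Q2140* against R2400* 4 members (2 higher, 2 lower) against 18.9%.

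**Figure D5:**
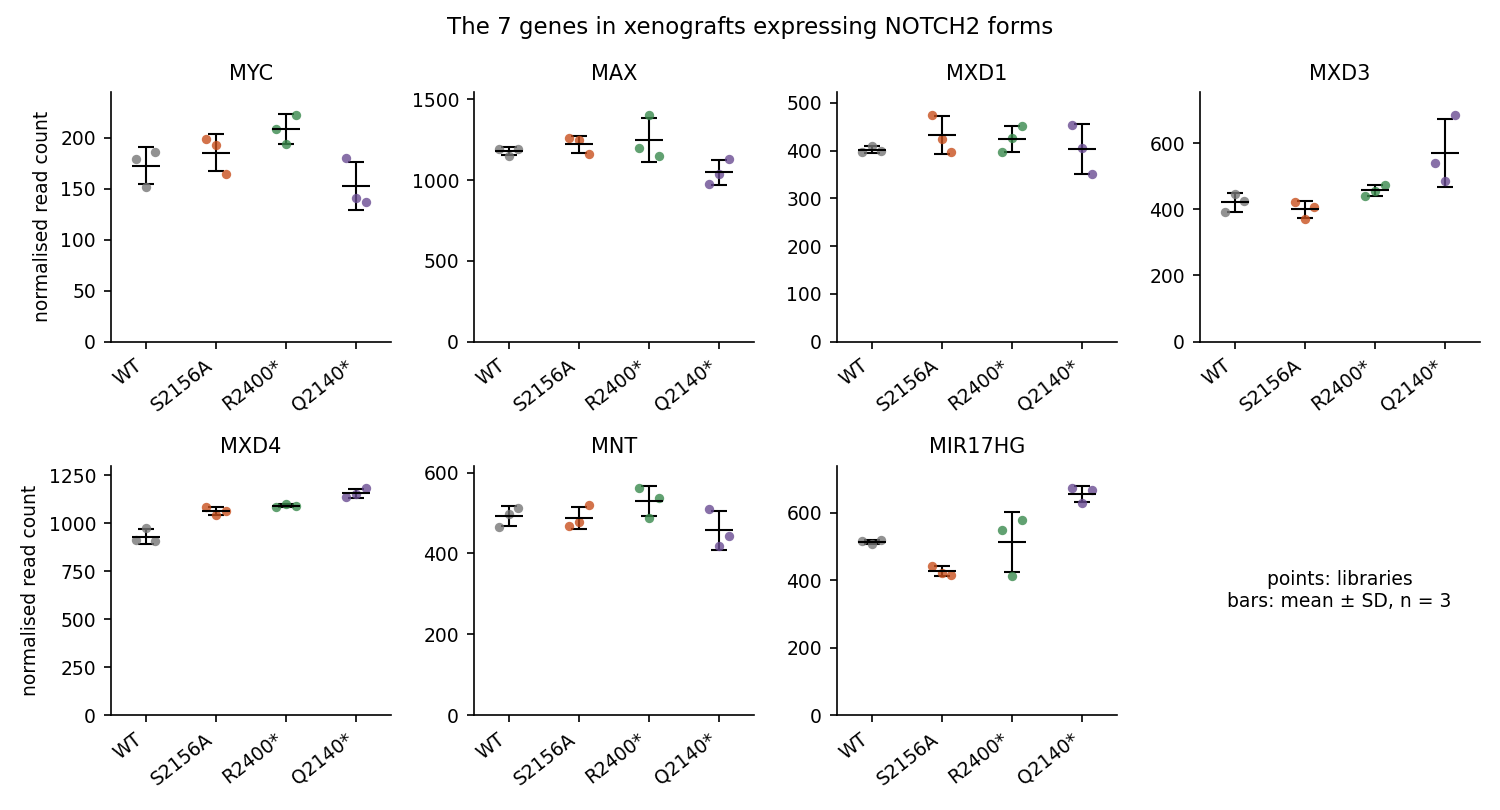
Normalised read count of the 7 members (y axis) in mutant tumours by expressed NOTCH2 construct (x axis), with libraries as points and the mean ± SD of 3 as dashes with error bars. The mean of MXD4 is lowest in NOTCH2(WT) and highest in Q2140*, and the means of MIR17HG and MXD3 are highest in Q2140*.

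Of the MYC targets, 63 were tested in each tumour experiment. In labelled KLHL6-KO tumours, where MYC was higher, 16 were higher and 1 lower than in WT (median 0.17), 27.0% of the list against 17.5% of all genes, led by the cell cycle kinase CDK4 (0.66 ± 0.10 with adjusted p = 6.37e-04), the uracil glycosylase UNG (0.54 ± 0.09 with adjusted p = 0.00111) and the nucleoside transporter SLC29A2 (0.88 ± 0.16 with adjusted p = 0.00204). Without WT replicate 3 it was 10 higher, and without labelled KLHL6-KO replicate 1, 2 or 3 it was 8, 9 and 7. In labelled NOTCH2-KO tumours 9 were higher and 6 lower (median -0.02), and in labelled DKO tumours 3 and 1 (median -0.03). These were 23.8% and 6.35% of the list, below the 30.7% and 9.35% of all genes. In labelled NOTCH2-KO tumours it was 15 higher and 5 lower without WT replicate 1, and 5 and 2, 9 and 3 and 4 and 3 without labelled NOTCH2-KO replicate 1, 2 or 3. In labelled DKO tumours it was 7 and 2, 3 and 0 and 3 and 3 without WT replicate 1, 2 or 3, and 3 and 2, 1 and 0 and 1 and 0 without labelled DKO replicate 1, 2 or 3. TERT, the catalytic subunit of telomerase, was higher in labelled NOTCH2-KO (1.31 ± 0.27 with adjusted p = 0.002) and labelled DKO tumours (1.17 ± 0.27 with adjusted p = 0.0151). Against NOTCH2(WT), 7 were higher and 3 lower in S2156A, 4 and 3 in R2400* and 8 and 4 in Q2140* tumours, with medians of -0.00028, -0.004 and -0.02. The shares called were 15.9%, 11.1% and 19.0%, where 15.2%, 8.04% and 20.5% of all genes were called. In S2156A tumours 4 were higher without NOTCH2(WT) replicate 3. In R2400* tumours it was 2 higher and 1 lower without NOTCH2(WT) replicate 1 or R2400* replicate 1 or 2, and 2 and 0 and 3 and 0 without NOTCH2(WT) replicate 2 or 3. In Q2140* tumours it was 5 and 5 and 7 and 2 without NOTCH2(WT) replicate 2 or 3 and 10 and 7 without Q2140* replicate 3. In Q2140* tumours NCL (nucleolin) and the RNA helicase DDX18 were higher than in NOTCH2(WT) tumours (0.37 ± 0.05 with adjusted p = 2.07e-06 and 0.44 ± 0.05 with adjusted p = 7.46e-07), while LDHA (lactate dehydrogenase) was lower (-0.28 ± 0.05 with adjusted p = 1.86e-04).

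Of the 16 miR-17-92 targets, 2 were higher and 5 lower in labelled KLHL6-KO tumours (median -0.20) and 1 and 5 in labelled NOTCH2-KO tumours (median -0.23), against WT. These were 43.8% and 37.5% of the list, where 17.5% and 30.7% of all genes were called. MIR17HG itself was called in neither comparison. In labelled KLHL6-KO tumours it was 1 higher and 3 lower without WT replicate 1 or labelled KLHL6-KO replicate 3, 0 and 3 without labelled KLHL6-KO replicate 1 and 1 and 4 without replicate 2, and in labelled NOTCH2-KO tumours 3 were lower without replicate 1 or 3 of that group. BCL2L11 was lower in the first (-0.47 ± 0.08 with adjusted p = 8.15e-04), and RNF11, an adaptor of ubiquitin ligases, in the second (-1.08 ± 0.12 with adjusted p = 1.74e-05). In Q2140* tumours, where MIR17HG was highest, 1 was higher and 6 lower than in NOTCH2(WT) tumours (median -0.15), 43.8% of the list against 20.5% of all genes, and 3 were lower without NOTCH2(WT) replicate 3 or Q2140* replicate 2. HIF1A and RBL2, a relative of the retinoblastoma protein, were lower (-0.39 ± 0.06 with adjusted p = 1.21e-05 and -0.28 ± 0.06 with adjusted p = 0.00116), and BCL2L11 was higher (0.41 ± 0.05 with adjusted p = 3.50e-06). S2156A against Q2140* tumours had 7 higher and 1 lower (median 0.20), 50% of the list against 30.7% of all genes. Against NOTCH2(WT), 18.75% of the list was called in S2156A tumours, where MIR17HG was called lower, and 18.75% in R2400* tumours, where it was not called. Of all genes 15.2% and 8.04% were called. In labelled DKO against WT tumours 18.75% of the list was called, where 9.35% of all genes were. The part of MIR17HG in these differences was not tested. Of the other list genes, MXI1 was lower in Q2140* than NOTCH2(WT) tumours (-0.51 ± 0.10 with adjusted p = 3.49e-04) and in labelled NOTCH2-KO than WT tumours (-0.55 ± 0.16 with adjusted p = 0.0156). PVT1 was lower in labelled NOTCH2-KO tumours (212 against 368 normalised counts, log2 -0.74 ± 0.17 with adjusted p = 0.00339) and higher in S2156A tumours (0.30 ± 0.08 with adjusted p = 0.0149). SAP18 was lower in labelled NOTCH2-KO and labelled DKO tumours (-0.63 ± 0.11 with adjusted p = 4.51e-04 and -0.67 ± 0.11 with adjusted p = 0.00207) and higher in S2156A, R2400* and Q2140* tumours (0.39 ± 0.05 with adjusted p = 3.26e-06, 0.47 ± 0.05 with adjusted p = 1.39e-06 and 0.38 ± 0.05 with adjusted p = 7.59e-06), each against its own WT group.

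Markers of host tissue moved with some of these groups. The stromal sum was 255 to 292 normalised counts over 7 markers in WT, 289 to 453 in labelled KLHL6-KO, 481 to 532 in labelled NOTCH2-KO and 233 to 336 in labelled DKO tumours. Over 12 markers it was 415 to 524 in NOTCH2(WT), 513 to 559 in S2156A, 379 to 538 in R2400* and 539 to 985 in Q2140* tumours, and PDGFRA was at 0 in S2156A and Q2140* tumours. Of 7 tested stromal markers 4 were higher in labelled NOTCH2-KO than WT tumours, where 30.7% of all genes were called. Of 8 tested 3 were higher in Q2140* than NOTCH2(WT) tumours and 5 than R2400* tumours, where 20.5% and 18.9% of all genes were called. Macrophage markers summed to 148 to 299.7 over 5 genes in the knockout and 277 to 529 over 6 in the mutant tumours. In the knockout tumours endothelial (1 gene), T and NK cell (1) and red cell markers (1) reached 97.1, 19.5 and 341, and in the mutant tumours 113 (4 genes), 45.0 (4) and 428 (3). Mitochondrial counts were 6.26% to 9.73% in all tumours. The part of host cells in the differences of the members was not tested.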

How the data were processed

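Poly(A) RNA was extracted with RNeasy and made into libraries with a directional kit (NEBNext Ultra), per the labels' protocols. Per the submitters' processing notes, STAR, SAMtools and DESeq2 were used with GRCh38. Not given in the sources used here are their versions, the counter, its use of strand and the annotation. What was deposited is a normalised signal: gene reads divided by 1 size factor per library. Dividing by each library's smallest step gave whole reads for 100% of values within 0.02 steps. In the knockout and mutant files 17 and 27 rows that name no gene (at most 0.252% of reads) were left out, and tumour rows were matched to GENCODE 29 by symbol.

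Each experiment was fitted with limma 3.58.1 (R 4.3.3, trend and robust) on log2(value + 2), with 1 coefficient per group and 3 libraries each. Genes were tested where 3 or more libraries had a value of 10 or more, 15032 in coculture, 14005 in the knockout and 15354 in the mutant tumours, in 23 comparisons with Benjamini-Hochberg adjustment over all genes, called under 0.05. The design had first named edgeR for counts. Because the values are normalised, limma is the main test and edgeR 4.0.16 (quasi-likelihood) on the recovered reads an alternative, beside a pseudocount of 8, no filter, TMM scaling, only the groups compared, the replicate number as a block and each library left out. The chi-square of counts between replicates was 1.37 to 65.8 per degree of freedom, so replicates spread more than counting noise. The scripts were tested on simulated data with independent libraries, the same spread beyond counting noise for all genes and no library that stood apart. That test therefore does not cover libraries that stand apart, as some do here.

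Exon lengths per kilobase are unions of GENCODE 29 exons. The members, lists and tests were chosen with earlier results of these data known. Members are named throughout, and of each other list at most the 3 called genes with the smallest adjusted p in a comparison, and some list genes are not reported here by name.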

Additional observations from a re-analysis of the deposited data

Results flagged for a closer look

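The course of MXD4 over coculture differed between WT and KLHL6-KO cells. The mean of its 3 genotype-by-time terms was -0.50 ± 0.09 on the log2 scale (limma, joint adjusted p = 0.00146). The course of MIR17HG differed as well. Its terms averaged 0.0405 ± 0.11 (joint adjusted p = 0.00561), negative at 3 h and positive at 8 and 12 h.

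In the knockout tumours MXD1 differed between the labelled effect of NOTCH2 loss with and without labelled KLHL6 loss, with an interaction of 0.54 ± 0.17 (limma, adjusted p = 0.0448). KLHL6 RNA was not lower in labelled KLHL6-KO or labelled DKO than in WT tumours. Without labelled DKO replicate 3, the shallowest library, the interaction was 0.50 (adjusted p = 0.0992).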

How the results depend on the processing

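No member changed its direction in a called result under any alternative. Of 161 member results, those that kept their call and direction numbered 158 with edgeR, 160 with a pseudocount of 8, 158 with TMM scaling, 155 without the filter, 155 with the replicate number as a block and 135 of 147 with only the groups compared (the joint tests use all groups), and 1035 of 1134 with 1 library left out did, with 77 lost calls and 22 gained. No count of genes called by edgeR moved by over 1.5 times.

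Without the filter, 3 members in place of 5 were called in KLHL6-KO cells at 8 h, 1 in place of 2 between genotypes at 3 h and at 12 h, and 1 in place of 2 for S2156A against NOTCH2(WT). With only the groups compared, members called were 1 in place of 2 between genotypes at 12 h, 1 in place of 3 for labelled KLHL6-KO against WT tumours, 1 in place of 2 for labelled NOTCH2-KO, and 2 in place of 4 for Q2140* against R2400*. Genes called under that setting were 2074 between genotypes at 3 h (1175 with all groups), 1291 for labelled KLHL6-KO tumours (2445), 231 for labelled DKO against WT (1310), 1436 for labelled DKO against labelled NOTCH2-KO (954), 3914 for S2156A (2333) and 1600 for Q2140* against R2400* (2908). For labelled DKO against labelled NOTCH2-KO tumours 1 member in place of 0, MYC, was called with a pseudocount of 8, TMM scaling, the block and only the groups compared.

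Replicate numbers were not taken as pairs, because not every pair correlated over 0.1 and no label says what a number shares. Same-numbered libraries correlated at -0.09 to 0.21 in coculture (18 of 84 pairs over 0.1), -0.19 to 0.22 in the knockout (3 of 18) and -0.07 to 0.03 in the mutant tumours (0 of 18), and 16 of 24, 4 of 12 and 1 of 12 libraries correlated best with their own number. In coculture the median correlation was 0.06 for same-numbered and -0.02 for other libraries, a hint from the data that some numbers share a source. With the replicate block, genes called were 1814 between genotypes at 3 h, 1027 in place of 652 at 8 h, 784 in place of 510 at 12 h and 2821 in place of 1858 for genotype by time. Members called with the block were 2 in place of 1 at 8 h and 0 in place of 1 in the tumour interaction.

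With 1 library left out, genes called ran from 1184 to 2665 for genotype by time, 647 to 1035, 381 to 659 and 282 to 572 between genotypes at 3, 8 and 12 h, 1131 to 2776 for labelled KLHL6-KO and 424 to 1591 for labelled DKO against WT tumours, 799 to 1287 and 423 to 1360 for labelled DKO against labelled KLHL6-KO and NOTCH2-KO tumours, 760 to 2410 for the interaction, 716 to 1293 for R2400* and 2063 to 2957 for Q2140* against NOTCH2(WT) and 255 to 1052 for S2156A against R2400*. Members called ran from 3 to 5 in KLHL6-KO cells at 8 h, 2 to 5, 0 to 2, 1 to 3 and 1 to 3 between genotypes at 0, 3, 8 and 12 h, 1 to 3 and 0 to 2 for labelled KLHL6-KO and NOTCH2-KO tumours, 0 to 1, 0 to 1 and 0 to 2 for labelled DKO against labelled KLHL6-KO and NOTCH2-KO tumours and the interaction, and 0 to 1 for S2156A and R2400* against NOTCH2(WT) and S2156A against R2400*. The cause of these moves was not tested. The counts of list genes with a library left out were chosen after seeing the data. Depth limits MYC most in labelled DKO replicate 3, which held 38 MYC reads.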
